A study of Mus musculus with 12 samples.

Results

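The 10 genes described here encode the surface and junction proteins that hold epithelial cells together: Epcam, the cadherin Cdh1, the claudins Cldn1, Cldn3, Cldn4, Cldn6, Cldn7, Cldn8 and Cldn13, and the scaffold Tjp1. They were taken by name from 27179 genes counted in 12 RNA-seq libraries of sorted thymic epithelial cells (TECs) from C57BL/6 mice, and all 10 passed the filter on low counts that left 19398 tested genes. The study compared TECs lacking HOIL-1 with controls, in MHC class II-high medullary TECs (mTEChi) and in cortical TECs (cTECs), with 3 libraries in each of 4 groups. HOIL-deficient mice were Foxn1creT/+ HOILlox/lox, and control mice were Foxn1cre+/+ Hoillox/lox, with the same floxed alleles on both chromosomes and no Cre transgene. Because Foxn1 is the transcription factor of thymic epithelium, the deletion was directed to TECs. Replicate 3 of both HOIL-deficient groups was labelled female and the other 10 libraries male, and ages were not labelled. Cells were gated as negative for CD45, TER-119 and CD31 and positive for EpCAM. mTEChi were MHC class II high, Ly51 negative and UEA1 positive, and cTECs were MHC class II positive, Ly51 positive and UEA1 negative. The protein of 1 member, EpCAM, was therefore a sort marker in every group.

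Claudins are membrane proteins that line up in tight junctions between neighbouring epithelial cells, where some seal the space between cells and others form pores for ions. Tjp1 (ZO-1) ties them to actin from the inside, Cdh1 (E-cadherin) holds the adherens junction below them, and EpCAM is an adhesion molecule that binds and stabilises claudin-7 in other epithelia. In the thymus, which has no lumen, claudin-3 and claudin-4 are known as surface markers of the medullary lineage from early in development. Rbck1 is the gene of HOIL-1, which works in the LUBAC ubiquitin ligase upstream of NF-kB.

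Libraries held 7941217 to 14274333 counts. Levels are CPM, library-size-normalised counts after TMM scaling (a factor per library), and RPKM is CPM per kilobase of counted gene length. Adjusted p is the Benjamini-Hochberg value over all 19398 tested genes from the quasi-likelihood test of edgeR, a gene was called under 0.05, and fold changes are log2 values with their approximate standard error (SE). The targeted gene Rbck1 stood at 11.3 to 23.4 CPM in HOIL-deficient mTEChi against 113 to 130.2 CPM in control mTEChi, and at 20.6 to 31.3 CPM in HOIL-deficient cTECs against 185 to 235 CPM in control cTECs. In HOIL-deficient cTECs 8 of 9 cTEC markers were called lower than in control cTECs, where 6.02% of all tested genes were called lower. The control populations carried their defining RNAs. The autoimmune regulator Aire averaged 809 CPM in control mTEChi and 0.838 CPM in control cTECs, whereas Enpep, which encodes Ly51, averaged 14.8 CPM in control mTEChi and 153 CPM in control cTECs. Control mTEChi stood apart in RNA composition: mitochondrial transcripts made up 1.71 to 1.91% of counts in HOIL-deficient mTEChi, against 8.93, 3.19 and 4.35% in control mTEChi replicates 1 to 3. Malat1, a nuclear RNA, took 0.713 to 0.983% in HOIL-deficient mTEChi and 3.29 to 5.13% in control mTEChi. The labels do not say that replicates came from separate animals, so the p-values describe library-to-library spread, which may be technical.

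The first question the design allows is which of these genes distinguish medulla from cortex. In control cells, 9 of the 10 genes were called between mTEChi and cTECs, 8 higher and 1 lower in mTEChi, where 64.2% of all tested genes were called (37.8% higher, 26.4% lower). In HOIL-deficient cells 9 were also called, 6 higher and 3 lower, against 48.4% of all tested genes (32% higher, 16.4% lower). The libraries of the cell types did not overlap for 8 of 10 members in control cells, against 70.8% of all tested genes, and for 10 of 10 in HOIL-deficient cells, against 56.5%. These member counts include Cldn6 and Cldn13, which entered the test through their mTEChi level. Their calls as higher in mTEChi were therefore favoured by the filter, and 8 of the 10 members passed it within the cTEC libraries. The share of calls over all genes is high in both comparisons. The median log2 fold change of all tested genes was 0.24 in control and 0.19 in HOIL-deficient cells, and member fold changes can be read against it.

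Cldn3, Cldn4 and Cldn7 were far higher in mTEChi than in cTECs. Cldn3 (Entrez 12739, chr5:134986214-134987476, + strand) was at 51.8, 46.0 and 51.6 CPM in HOIL-deficient mTEChi and at 129, 172 and 160.0 CPM in control mTEChi. In HOIL-deficient cTECs it was at 1.68, 0.971 and 0 CPM, and in control cTECs at 2.52, 1.38 and 2.41 CPM. Every mTEChi library lay above every cTEC library, and the log2 fold change of mTEChi over cTECs was 6.16 in control cells (SE 0.504, adjusted p = 2e-07) and 5.97 in HOIL-deficient cells (adjusted p = 7.1e-07). Cldn4 (Entrez 12740, chr5:134945123-134946934, - strand), which with Cldn3 serves as a receptor for a clostridial enterotoxin, was at 62.3, 40.6 and 100.1 CPM in HOIL-deficient mTEChi and at 133, 156 and 148 CPM in control mTEChi. Its cTEC values were 3.02, 0 and 0 CPM in HOIL-deficient cells and 2.90, 1.51 and 2.61 CPM in controls. The groups of the cell types again did not overlap, with log2 fold changes of 5.93 in control cells (SE 0.754, adjusted p = 1.7e-05) and 6.28 in HOIL-deficient cells (adjusted p = 2.8e-05). Cldn7 (Entrez 53624, chr11:69964779-69967886, + strand), the EpCAM partner, was at 197, 200.5 and 211 CPM in HOIL-deficient mTEChi and at 389.8, 336 and 362 CPM in control mTEChi. Its cTEC levels were 5.36, 0.582 and 0 CPM in HOIL-deficient cells and 1.31, 2.39 and 2.31 CPM in controls. The step between cell types was 7.51 in control cells (SE 0.776, adjusted p = 3.4e-06) and 6.83 in HOIL-deficient cells (adjusted p = 8.9e-06).

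**Figure D1:**
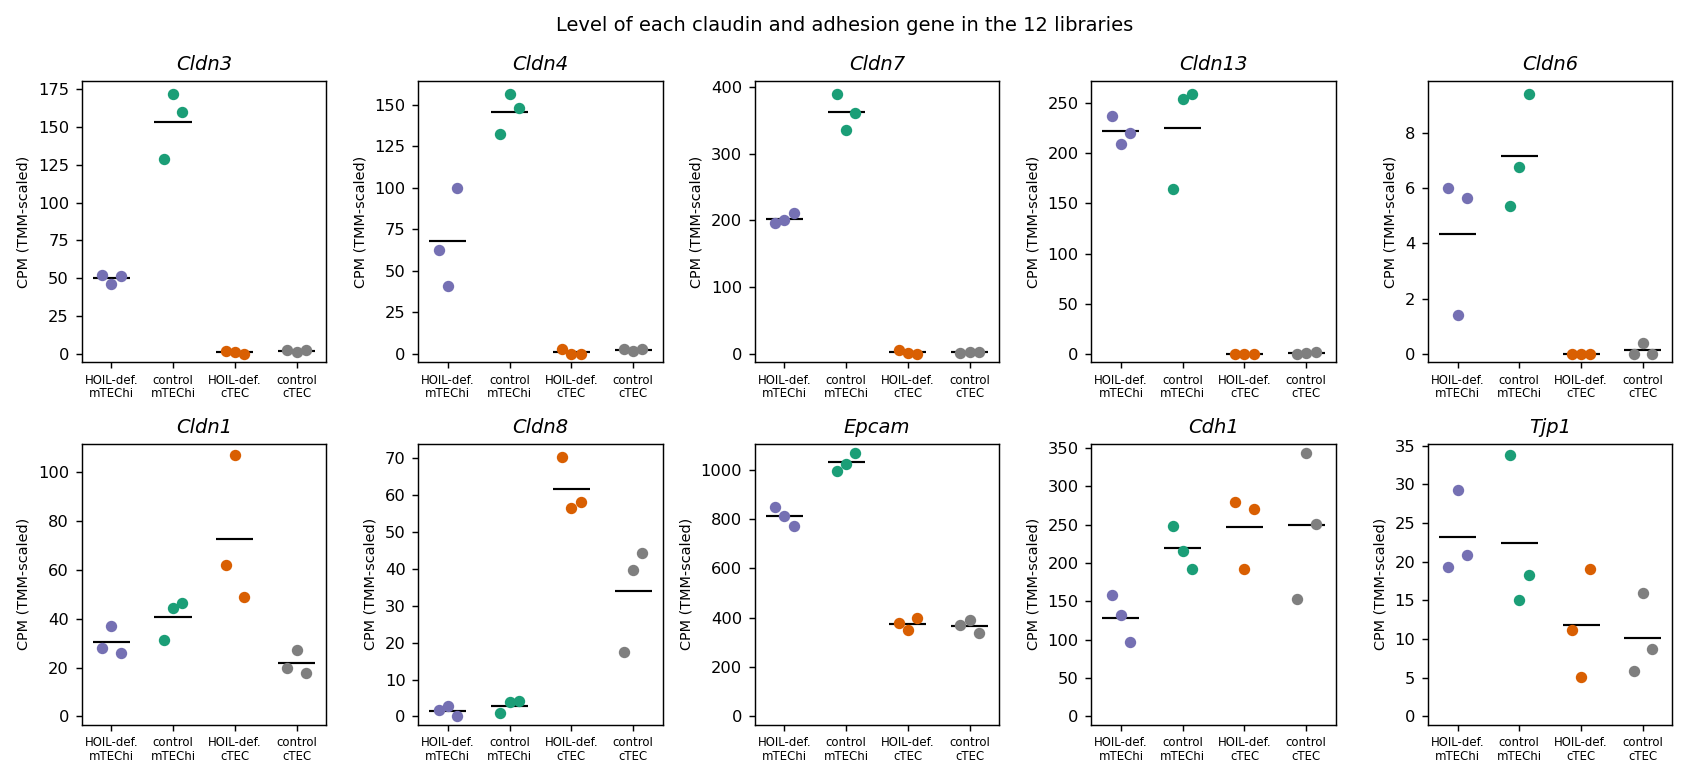
Level of each of the 10 genes in CPM (linear axis from 0, TMM-scaled) in every library, with the line at the mean of the 3 libraries of a group. Cldn3, Cldn4, Cldn7 and Cldn13 lie near 0 in both cTEC groups and between 40.6 and 389.8 CPM in mTEChi, while Cldn8 shows the reverse.

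The promoter sequences of these 3 claudins are shown with that of Cldn1, which had another pattern, so that the genes can be compared at the DNA level. Each run is the 250 bases before the annotated start, 5' to 3' on the gene's own strand, from RefSeq (GRCm38.p6). They are Cldn3 at chr5:134985964-134986213 (+), Cldn4 at chr5:134946935-134947184 (-), Cldn7 at chr11:69964529-69964778 (+) and Cldn1 at chr16:26371840-26372089 (-). Capitals mark every match, on either strand, to the GC box GGGCGG bound by Sp1 (CCGCCC on the other strand) or the E-box CAGGTG bound by Snail and ZEB repressors (CACCTG on the other strand).
Cldn3: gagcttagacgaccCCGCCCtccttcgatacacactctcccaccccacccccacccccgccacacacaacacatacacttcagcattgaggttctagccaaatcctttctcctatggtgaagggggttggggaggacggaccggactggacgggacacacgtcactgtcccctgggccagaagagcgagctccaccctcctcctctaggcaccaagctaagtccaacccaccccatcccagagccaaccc
Cldn4: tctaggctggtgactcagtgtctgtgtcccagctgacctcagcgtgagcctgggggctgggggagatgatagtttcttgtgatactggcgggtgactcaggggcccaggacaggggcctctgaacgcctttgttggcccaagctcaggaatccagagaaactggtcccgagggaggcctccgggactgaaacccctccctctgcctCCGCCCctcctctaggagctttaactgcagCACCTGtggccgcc
Cldn7: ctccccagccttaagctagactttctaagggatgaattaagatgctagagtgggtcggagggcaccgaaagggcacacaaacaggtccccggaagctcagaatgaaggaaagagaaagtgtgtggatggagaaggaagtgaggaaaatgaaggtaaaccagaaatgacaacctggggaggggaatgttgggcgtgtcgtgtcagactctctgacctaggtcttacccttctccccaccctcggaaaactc
Cldn1: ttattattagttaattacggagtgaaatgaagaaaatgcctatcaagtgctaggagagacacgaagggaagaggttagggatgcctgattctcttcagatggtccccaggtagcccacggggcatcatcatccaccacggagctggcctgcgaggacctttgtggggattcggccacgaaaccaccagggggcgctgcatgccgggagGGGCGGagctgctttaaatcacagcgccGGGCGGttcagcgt
Counted from the first base of the match to the gene's start, Cldn4 had an E-box at 14 bases and a GC box at 44 bases, Cldn3 had a GC box at 236 bases, Cldn1 had GC boxes at 42 and 14 bases, and Cldn7 had neither motif. Promoters were found for 7 of the 10 members. Epcam had 2 E-boxes and 1 GC box, Cldn6 had 1 E-box and 2 GC boxes, and Tjp1 had 2 GC boxes and no E-box. The E-box occurred in 17.2% and the GC box in 32.7% of 32817 promoters of the same length. Neither the grainyhead-type motif AACNNGTT (3.64% of promoters) nor the kappaB consensus (7.25%) matched in any of the 7 windows.

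Cldn13 (Entrez 57255, chr5:134914250-134915530, - strand), a claudin present in mouse but not in human and known from mouse blood-forming tissue and bladder, had the sharpest contrast. It was at 238, 209 and 221 CPM in HOIL-deficient mTEChi and at 164, 254 and 259 CPM in control mTEChi. In cTECs it had no count in any HOIL-deficient library, and it was at 0.0934, 1.00 and 1.91 CPM in controls. The log2 fold change in control cells was 7.82 (SE 0.486, adjusted p = 6.9e-08), and in HOIL-deficient cells Cldn13 was at least 2504-fold higher in mTEChi, counting the empty group at a floor of 3 counts over its libraries. Such floors and the interval below cover counting error only. Cldn6 (Entrez 54419, chr17:23679348-23682446, + strand), a claudin of embryonic epithelia, was far rarer, at 5.99, 1.42 and 5.64 CPM in HOIL-deficient mTEChi and at 5.36, 6.75 and 9.41 CPM in control mTEChi. Of the 6 cTEC libraries, only control replicate 2 had any Cldn6 count, with 3. Control mTEChi had 189 counts of Cldn6 against these 3, a scaled ratio of 68.1 (exact 95% interval 22.9 to 333), and in HOIL-deficient cells the level in mTEChi was at least 48.9-fold higher. Cldn6 and Cldn13 did not pass the count filter within the cTEC libraries and entered the test through their mTEChi level.

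Cldn8 ran the other way and Cldn1 changed sides with genotype. Cldn8 (Entrez 54420, chr16:88560826-88563183, - strand), a sealing claudin of the distal nephron and colon, was at 1.62, 2.93 and 0 CPM in HOIL-deficient mTEChi and at 0.816, 3.95 and 4.10 CPM in control mTEChi. In cTECs it was at 70.4, 56.4 and 58.2 CPM in HOIL-deficient cells and 17.5, 39.8 and 44.3 CPM in controls. It was lower in mTEChi in both genotypes, with log2 fold changes of mTEChi over cTECs of -3.51 in control cells (SE 0.706, adjusted p = 0.00066) and -5.40 in HOIL-deficient cells (adjusted p = 5.1e-05). Cldn1 (Entrez 12737, chr16:26356645-26371839, - strand), the claudin that seals the epidermis, was at 27.9, 37.2 and 25.9 CPM in HOIL-deficient mTEChi and at 31.5, 44.5 and 46.4 CPM in control mTEChi. In cTECs it was at 62.1, 107 and 49.0 CPM in HOIL-deficient cells and at 19.99, 27.4 and 18.0 CPM in controls. Control mTEChi thus lay above control cTECs (0.91, SE 0.290, adjusted p = 0.013), whereas HOIL-deficient mTEChi lay below HOIL-deficient cTECs (-1.26, adjusted p = 0.0022). The control call was lost without control cTEC replicate 3 (0.78, adjusted p = 0.058) and held in the other 14 alternatives.

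Of the adhesion genes outside the claudin family, Epcam followed the medulla and Cdh1 did not. Epcam (Entrez 17075, chr17:87635979-87651127) was at 848, 814 and 771 CPM in HOIL-deficient mTEChi and at 995, 1023 and 1068 CPM in control mTEChi. The cTEC levels were 378, 351 and 397 CPM in HOIL-deficient cells and 371, 391 and 339 CPM in controls. Among cells all sorted on the protein, the RNA was higher in mTEChi by 1.49 on the log2 scale in control cells (SE 0.121, adjusted p = 1.8e-07) and by 1.11 in HOIL-deficient cells (adjusted p = 3.7e-06). Cdh1 (Entrez 12550, chr8:106603350-106670247) was at 158, 132 and 96.3 CPM in HOIL-deficient mTEChi and at 248, 216 and 193 CPM in control mTEChi. In cTECs it was at 279, 192 and 270.0 CPM in HOIL-deficient cells and 153, 343 and 250.5 CPM in controls. Control cells of the medulla and cortex overlapped (-0.18, adjusted p = 0.55, with the sign turning to 0.01 under RLE factors), while HOIL-deficient mTEChi were below HOIL-deficient cTECs (-0.94, adjusted p = 0.0084), a call lost among male libraries only (-0.73, adjusted p = 0.092). Tjp1 (Entrez 21872, chr7:65296165-65527850) was low in all groups, at 19.3, 29.3 and 20.9 CPM in HOIL-deficient mTEChi and at 33.8, 15.1 and 18.2 CPM in control mTEChi. In cTECs it was at 11.2, 5.14 and 19.01 CPM in HOIL-deficient cells and 5.88, 15.9 and 8.73 CPM in controls. Its medullary excess in control cells (1.14, SE 0.469, adjusted p = 0.045) was lost in 6 of 15 alternatives (adjusted p up to 0.22), among them fits without control cTEC replicate 1 or 3 or control mTEChi replicate 1 or 3. In HOIL-deficient cells Tjp1 was not called (0.97, adjusted p = 0.1), although it passed without HOIL-deficient cTEC replicate 3 (1.48, adjusted p = 0.027).

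Levels per length put the genes of a group in order. In HOIL-deficient mTEChi, Epcam led with 393 ± 18.7 RPKM (SD, n = 3 here and below), followed by Cldn13 at 208 ± 13.3 and Cldn7 at 139.5 ± 5.16 RPKM. Cldn3 at 39.4 ± 2.63, Cldn4 at 37.3 ± 16.6 and Cdh1 at 29.2 ± 6.99 RPKM came next and overlapped their neighbours, and Cldn1, Tjp1, Cldn6 and Cldn8 lay between 9.36 and 0.643 RPKM. In control mTEChi, Epcam at 499 ± 17.9 RPKM was followed by Cldn7 at 249 ± 18.6 and Cldn13 at 211 ± 50.0 RPKM, which overlapped. Cldn3 at 121 ± 17.7, Cldn4 at 80.4 ± 6.71 and Cdh1 at 49.6 ± 6.31 RPKM were each apart from the next. The order of Cldn7 and Cldn13 thus differed between the mTEChi groups, and Cldn3 and Cldn4 overlapped each other only in the HOIL-deficient one. In HOIL-deficient cTECs, Epcam at 182 ± 11.05 and Cdh1 at 56.0 ± 10.8 RPKM led, then Cldn8 at 26.2 ± 3.23 and Cldn1 at 22.5 ± 9.42 RPKM, and no other member averaged above 1.66 RPKM. Control cTECs had the same leading order, with Epcam at 178 ± 12.7, Cdh1 at 56.4 ± 21.5, Cldn8 at 14.4 ± 6.10 and Cldn1 at 6.72 ± 1.53 RPKM. The cTEC claudins Cldn8 and Cldn1 overlapped in both genotypes.

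**Figure D2:**
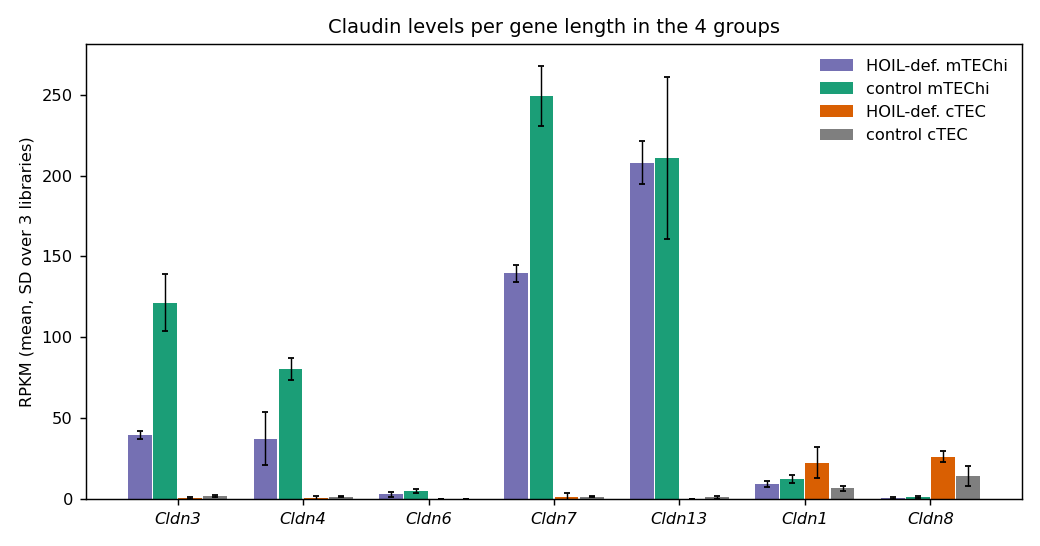
Mean RPKM of the 7 claudins in the 4 groups, with the SD over 3 libraries as error bars and a linear axis from 0. Cldn7 and Cldn13 are the highest claudins of mTEChi, and Cldn8 and Cldn1 those of cTECs.

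HOIL-deficient mTEChi were then compared with control mTEChi. Cldn3 fell and was the only member called, 1 of 10 where 19.9% of all tested genes were called (11.3% higher, 8.59% lower). It averaged 49.8 ± 3.32 CPM in HOIL-deficient mTEChi and 153 ± 22.3 CPM in control mTEChi, which is -1.62 on the log2 scale (SE 0.390, adjusted p = 0.011). The lowest control library was above the highest HOIL-deficient library by more than the whole spread of the HOIL-deficient group. The call held under all 14 alternatives, with adjusted p between 3.1e-05 and 0.047. Without control mTEChi replicate 1, the library with the most mitochondrial RNA, the log2 fold change was -1.76 (adjusted p = 0.026). Control replicates 2 and 3 still held 3.19 and 4.35% mitochondrial counts, against at most 1.91% in HOIL-deficient mTEChi. RNA composition and genotype therefore cannot be told apart in mTEChi. In bulk samples, fewer cells of a type and less RNA per cell cannot be told apart.

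Another 4 members, Cldn7, Cldn4, Cdh1 and Epcam, had all 3 HOIL-deficient mTEChi libraries below all 3 control libraries without passing the test. With Cldn3 that makes 5 of 10 genes without overlap, against 44.8% of all tested genes. Epcam averaged 811 ± 38.6 CPM in HOIL-deficient mTEChi and 1029 ± 36.9 CPM in control mTEChi (-0.34, SE 0.118, adjusted p = 0.054). Cdh1 averaged 129 ± 30.8 CPM in HOIL-deficient mTEChi and 219 ± 27.9 CPM in control mTEChi (-0.77, SE 0.261, adjusted p = 0.053). Both lay at the threshold and crossed it under 5 of 14 alternatives, among them RLE factors (adjusted p = 0.024 for Epcam and 0.034 for Cdh1), upper-quartile factors, DESeq2 and limma-voom, and Epcam also without control mTEChi replicate 1 (adjusted p = 0.044). Cldn7 averaged 203 ± 7.50 CPM in HOIL-deficient mTEChi and 362 ± 27.1 CPM in control mTEChi, which gave -0.84 on the log2 scale (SE 0.553, adjusted p = 0.31). Its replicates were tight in both mTEChi groups, and its counts in cTECs were few and uneven. All 12 libraries share the fit, and the part of the cTEC counts in the missed call was not tested. In a fit of the mTEChi libraries alone the adjusted p of Cldn7 was 0.0027, and that of Cldn4 was 0.014. Cldn7 and Cldn4 each crossed the threshold under 2 of 14 alternatives, that fit and limma-voom of all 12 libraries. With all libraries the Cldn4 effect was -1.11 (SE 0.582, adjusted p = 0.2), from 67.7 ± 30.1 CPM in HOIL-deficient mTEChi and 146 ± 12.2 CPM in control mTEChi.

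The remaining members gave no call in mTEChi. Cldn13 averaged 222 ± 14.2 CPM in HOIL-deficient mTEChi and 226 ± 53.5 CPM in control mTEChi (-0.02, SE 0.327, adjusted p = 0.97), although it lies in the same chromosomal cluster as Cldn3 and Cldn4. On the log2 scale the values were -0.43 for Cldn1 (SE 0.286, adjusted p = 0.32), -0.72 for Cldn6 (SE 0.710, adjusted p = 0.52), -1.03 for Cldn8 (SE 0.781, adjusted p = 0.38) and 0.05 for Tjp1 (SE 0.456, adjusted p = 0.96). Cldn6 and Cldn8 stayed below 10 CPM in every mTEChi library and had the widest SE of these genes.

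**Figure D3:**
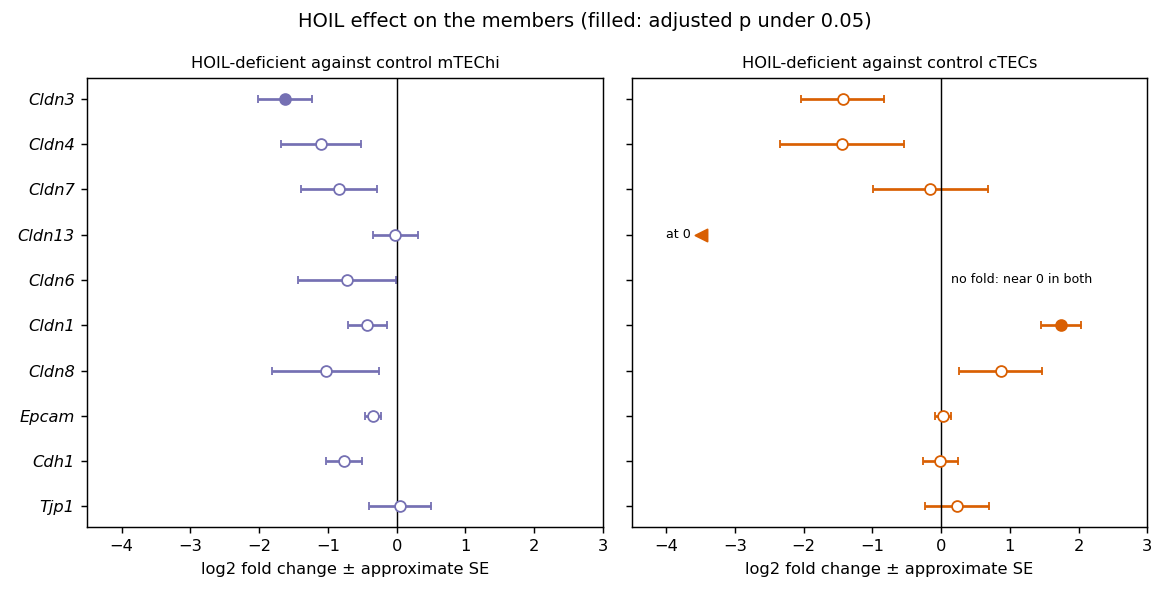
Log2 fold change of HOIL-deficient over control cells with its approximate SE, for mTEChi (left) and cTECs (right). Filled points passed the test: Cldn3 in mTEChi at -1.62, and in cTECs Cldn1 at 1.74 and Cldn13, drawn as a triangle at its bound because HOIL-deficient cTECs had no count. Cldn6 has no fold in cTECs.

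In HOIL-deficient cTECs Cldn1 rose, while Epcam and Cdh1 gave no call. Called members were 2 of 10, Cldn1 higher and Cldn13 lower, where 12.1% of all tested genes were called (6.06% higher, 6.02% lower). Cldn1 averaged 72.8 ± 30.5 CPM in HOIL-deficient cTECs and 21.8 ± 4.95 CPM in control cTECs (1.74, SE 0.293, adjusted p = 0.0023). HOIL-deficient replicate 2, at 107 CPM, was the highest of the 6 libraries. The call held in all 14 alternatives (adjusted p 4.9e-07 to 0.014) and the log2 fold change was 1.35 without HOIL-deficient replicate 2. Cldn13 was at 0 in HOIL-deficient cTECs and 1.00 ± 0.906 CPM in control cTECs, at least 11.3-fold lower (adjusted p = 0.014), a difference that rests on 28 control counts. Its call was lost among male libraries only (adjusted p = 0.053), and Cldn13 could not be tested in a fit of the cTEC libraries alone, where it failed the count filter. Cldn8 averaged 61.7 ± 7.62 CPM in HOIL-deficient cTECs and 33.9 ± 14.4 CPM in control cTECs without overlap, but missed the threshold (0.87, SE 0.606, adjusted p = 0.4). Cldn1, Cldn8 and Cldn13 were the 3 of 10 members without overlap in cTECs, against 28% of all tested genes.

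Epcam averaged 375 ± 22.8 CPM in HOIL-deficient cTECs and 367 ± 26.1 CPM in control cTECs (0.03, SE 0.118, adjusted p = 0.95), and Cdh1 averaged 247 ± 47.8 CPM in HOIL-deficient and 249 ± 94.8 CPM in control cTECs (-0.01, SE 0.259, adjusted p = 1). Tjp1 also gave no call (0.23, SE 0.468, adjusted p = 0.84). Cldn3, Cldn4 and Cldn7 had few counts in cTECs, and their values depended on single libraries. HOIL-deficient cTEC replicate 3 had no count of any of them. HOIL-deficient cTEC replicate 1 held all 27 Cldn4 counts, 48 of 54 Cldn7 counts and 15 of 25 Cldn3 counts of its group. With that library, the log2 fold changes were -1.43 for Cldn3 (SE 0.608, adjusted p = 0.15), -1.45 for Cldn4 (SE 0.903, adjusted p = 0.33) and -0.16 for Cldn7 (SE 0.836, adjusted p = 0.99). Without it they were -2.31 for Cldn3 (adjusted p = 0.044) and -2.94 for Cldn7 (adjusted p = 0.011), Cldn4 had no count left in the group (adjusted p = 0.0017), and 5 members were called. Leaving out other libraries moved the values the other way, up to -0.71 for Cldn3, -0.72 for Cldn4 and 0.54 for Cldn7.

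The HOIL effect was tested for a difference between the cell types as the mTEChi effect minus the cTEC effect. It differed for 2 of 10 members, where 9.84% of all tested genes were called (5.97% higher, 3.86% lower). The difference for Cldn1 was -2.17 (SE 0.408, adjusted p = 0.0069), from -0.43 in mTEChi and 1.74 in cTECs, and it held under all 20 alternatives (adjusted p 1.1e-05 to 0.022). The difference for Cldn13 was called higher (adjusted p = 0.022). It has no fold because HOIL-deficient cTECs had no count, and it was lost among male libraries only (adjusted p = 0.075) and without control cTEC replicate 3 (adjusted p = 0.053). Epcam (-0.38, adjusted p = 0.17), Cdh1 (-0.76, adjusted p = 0.21) and Cldn8 (-1.90, adjusted p = 0.24) missed the threshold. Cldn3, called in mTEChi only, had a difference of -0.19 (adjusted p = 0.95), so its effects in the cell types were not shown to differ. The control libraries of each cell type enter both its HOIL effect and this difference.

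Cldn13, Cldn4 and Cldn3 are neighbours on chromosome 5, within 73.2 kb (chr5:134914250-134987476), with Mettl27 between Cldn13 and Cldn4. In mTEChi, as given above, Cldn3 was called lower (-1.62), Cldn4 was lower without passing the threshold (-1.11) and Cldn13 differed by -0.02. Whether these effects differ from one another was not tested. Mettl27 averaged 63.5 CPM in HOIL-deficient mTEChi and 65.4 CPM in control mTEChi (-0.05, adjusted p = 0.94). Beyond Cldn3, Wbscr25 averaged 2.83 CPM in HOIL-deficient and 8.55 CPM in control mTEChi (-1.59, adjusted p = 0.043). Abhd11os averaged 9.68 CPM in HOIL-deficient and 38.5 CPM in control mTEChi (-1.99, adjusted p = 0.0011), and Abhd11 averaged 75.6 CPM in HOIL-deficient and 100.4 CPM in control mTEChi (-0.41, adjusted p = 0.088). Farther out, Bud23 was higher, at 79.7 CPM in HOIL-deficient and 54.7 CPM in control mTEChi (0.54, adjusted p = 0.042), and Stx1a, Dnajc30 and Vps37d gave no call. Wbscr25 (chr5:134987433-135001350) overlaps only the end of Cldn3 (chr5:134986214-134987476), on the opposite strand. The strandedness of the counting is not given, so reads from this overlap cannot be told apart. Tjp1 likewise overlaps 3 predicted genes. On chromosome 17, Cldn9, the neighbour of Cldn6 and a claudin of the inner ear, was at 8.62, 5.48 and 10.4 CPM in HOIL-deficient mTEChi and at 26.7, 29.0 and 26.3 CPM in control mTEChi. These groups did not overlap and Cldn9 fell (-1.74, SE 0.498, adjusted p = 0.026).

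Across the 12 libraries, which fall into the 2 cell types, the closest patterns to each gene were described by Pearson's r of log2 CPM, without a test. The nearest genes were Tincr, Asprv1 and H1f8 to Cldn3 (r = 0.991 for Tincr), Zfp750, Tspan1 and AA986860 to Cldn4 (0.995 for Zfp750), and Scg2, Grin2c and Csn2 to Cldn7 (0.988 for Scg2). Calca, Aipl1 and 4921528I07Rik came closest to Cldn13 (0.997 for Calca), and Krt25 and Sftpc were among the closest to Epcam (0.996 for Krt25). Rtbdn, Nat8f5 and Tph2 were nearest to Cldn6 (0.996 for Rtbdn) and Fzd3, Errfi1 and Ttc30b to Cldn8 (0.968 for Fzd3). Matches were looser for Cldn1 (Sox6 at 0.919, Ctsf, Mettl9), Cdh1 (Agap1 at 0.939, Arhgef5, Pkp3) and Tjp1 (Txndc11 at 0.940, Pbxip1, Bax). Among the members, Cldn3, Cldn4 and Cldn7 correlated with one another at 0.973 to 0.982 over the 12 libraries. After group means were removed these values were 0.664 for Cldn3 with Cldn4, 0.830 for Cldn3 with Cldn7 and 0.827 for Cldn4 with Cldn7, over libraries that include the uneven HOIL-deficient cTECs. For Cldn13 with Cldn3, r was 0.948 over the 12 libraries and -0.04 after group means were removed.

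Other junction genes were read from 8 lists holding 101 genes, of which 91 were tested. In HOIL-deficient against control mTEChi, 11 were called higher and 18 lower (31.9%, against 19.9% of all tested genes), with a median log2 fold change of -0.25 against -0.03 over all genes. Of 5 genes around EpCAM and its protease axis, 4 were lower and none higher, and the protease matriptase itself (St14) gave no call (-0.22, adjusted p = 0.44). Spint1, an inhibitor of the protease matriptase, was at 147, 109 and 116 CPM in HOIL-deficient mTEChi and at 199, 260.1 and 229.6 CPM in control mTEChi (-0.89, SE 0.159, adjusted p = 0.0023). The Spint1 groups did not overlap. The protease Prss8 (-1.06, adjusted p = 0.0028) and the inhibitor Spint2 (-0.45, adjusted p = 0.042) were lower as well.

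Tight junction plaque and polarity genes had 4 of 20 lower and none higher in HOIL-deficient mTEChi. This share of calls was near the 19.9% of all tested genes (11.3% higher, 8.59% lower). The adherens junction list (25%) and the list of regulators (23.1%), both described below, were also near it. The scaffold Tjp3 averaged 56.0 ± 11.6 CPM in HOIL-deficient mTEChi and 113 ± 7.69 CPM in control mTEChi (-1.01, adjusted p = 0.0036), cingulin (Cgn) had a log2 fold change of -1.66 (adjusted p = 0.0052) and the polarity kinase Prkcz one of -1.58 (adjusted p = 0.0093). Membrane proteins of the tight junction other than claudins went both ways, with Jam2 (3.45, adjusted p = 0.0056) and Jam3 (1.53, adjusted p = 0.012) higher and F11r (-0.53, adjusted p = 0.018) and Ildr1 (-0.67, adjusted p = 0.034) lower. In the adherens junction, the cell adhesion receptors Nectin1 (-1.36, adjusted p = 0.0038) and Nectin4 (-2.25, adjusted p = 0.028) fell and Nectin3 (0.80, adjusted p = 0.02) rose, of 12 tested. Desmosome genes split: the plaque protein Dsp averaged 87.0 ± 8.77 CPM in HOIL-deficient mTEChi and 271 ± 86.9 CPM in control mTEChi (-1.64, adjusted p = 0.00022), whereas the desmosomal cadherins Dsc3 (1.33, adjusted p = 0.01) and Dsg1b (1.93, adjusted p = 0.0024) rose, in all 4 higher and 2 lower of 13. Counts of Dsg1a, Dsg1b and Dsg1c are uncertain because these paralogs are nearly identical. Among 13 regulators of epithelial junction genes, which include splicing factors, 3 were lower and none higher, namely the transcription factors Klf5 (-1.31, adjusted p = 0.0049), Elf3 (-1.31, adjusted p = 0.017) and Tfcp2l1 (-0.88, adjusted p = 0.024). Of 5 repressors of such genes Snai2 averaged 31.2 ± 8.98 CPM in HOIL-deficient mTEChi and 11.5 ± 3.66 CPM in control mTEChi (1.44, adjusted p = 0.0029), and Zeb2 was higher too (2.20, adjusted p = 0.0042). Snai2 and Zeb2 are also known in fibroblasts and pericytes. Genes of these cells summed to 692 to 951 CPM in HOIL-deficient mTEChi and 353 to 410.3 CPM in control mTEChi without overlap. Of the 12 genes 3 were called higher and none was at 0, where 11.3% of all tested genes were called higher. The part of fibroblasts and pericytes in the Snai2, Zeb2 and Jam3 values was not tested.

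In HOIL-deficient against control cTECs 7 list genes were higher and 14 lower (23.1%, against 12.1% of all tested genes), with a median of -0.04 against -0.02 over all genes. Spint1 averaged 112 ± 9.51 CPM in HOIL-deficient cTECs and 207 ± 15.8 CPM in control cTECs (-0.88, adjusted p = 0.0034), and Prss8 fell as well (-0.65, adjusted p = 0.045). Occludin (Ocln), a membrane protein of tight junctions, averaged 3.19 ± 0.338 CPM in HOIL-deficient cTECs and 12.7 ± 4.19 CPM in control cTECs (-1.99, adjusted p = 0.0073). The virus receptor Cxadr rose (2.14, adjusted p = 0.0015), with Jam2 (3.15, adjusted p = 0.014) and Jam3 (1.77, adjusted p = 0.0088). The polarity gene Crb3 (-3.76, adjusted p = 0.0048, 4 counts in HOIL-deficient and 52 in control cTECs) and the plaque genes Tjp3 (-0.84, adjusted p = 0.042) and Cgn (-1.12, adjusted p = 0.048) fell. Nectin3 rose (1.88, adjusted p = 3e-04) and plakoglobin (Jup) fell (-0.82, adjusted p = 0.046). The desmosomal genes Dsp (-0.65, adjusted p = 0.039), Dsg2 (-0.82, adjusted p = 0.033) and Dsg1a (adjusted p = 0.0023) fell too. Dsg1a had 2 counts in HOIL-deficient and 50 counts in control cTECs and entered the test through its mTEChi level. Elf3 (-1.53, adjusted p = 0.026), Ehf (-1.18, adjusted p = 0.036) and Tfcp2l1 (-1.04, adjusted p = 0.021) fell and Zeb2 (2.82, adjusted p = 0.0014) rose. The lists were thinner in some alternatives, with 10 genes called when cTEC libraries were fitted alone and 12 with limma-voom.

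**Figure D4:**
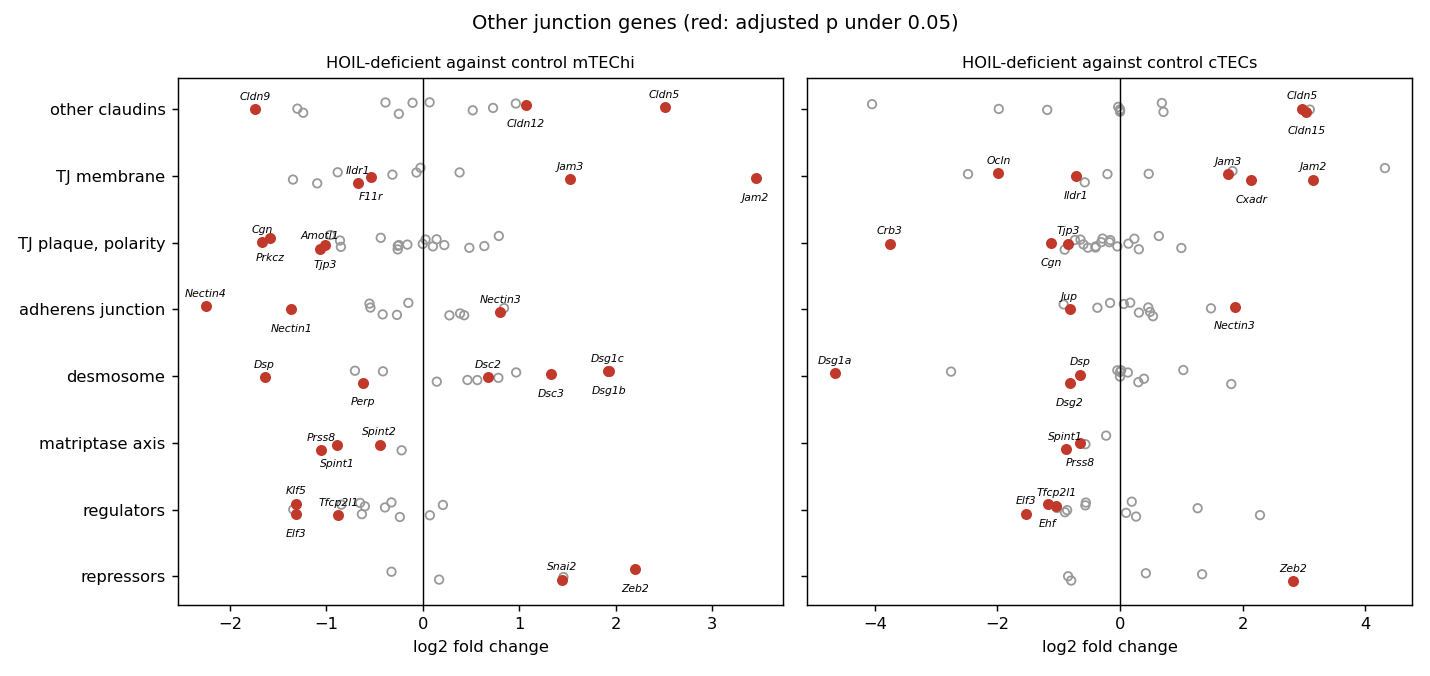
Log2 fold change of HOIL-deficient over control cells for 90 of the 91 tested genes of 8 junction lists, in mTEChi (left) and cTECs (right). Filled points are genes called by edgeR, 28 of those shown in mTEChi and 21 in cTECs. The lists of the matriptase axis, of plaque proteins and of junction regulators hold only lower calls in both cell types. In mTEChi the shares called were 20% for plaque proteins and 23.1% for regulators, near the 19.9% of all tested genes. In cTECs the share for plaque proteins was 15%, near the 12.1% of all tested genes.

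The claudins outside the members had 12 tested genes, of which 25% were called in mTEChi and 16.7% in cTECs. Over all tested genes these shares were 19.9% in mTEChi and 12.1% in cTECs. Cldn5, the claudin of blood vessels, was at 27.2, 70.9 and 56.5 CPM in HOIL-deficient mTEChi and at 10.7, 4.26 and 12.3 CPM in control mTEChi (2.51, adjusted p = 0.0078). In cTECs it was at 18.999, 40.3 and 9.16 CPM in HOIL-deficient cells and at 3.64, 1.13 and 3.71 CPM in controls (2.98, adjusted p = 0.0066). Neither pair overlapped, and a list of 12 endothelial markers moved with Cldn5, Jam2 and Jam3. It summed to 288 to 751 CPM in HOIL-deficient mTEChi and 107 to 152 CPM in control mTEChi, with 9 of 12 higher. In cTECs it summed to 174 to 493 CPM in HOIL-deficient and 43.1 to 85.7 CPM in control cells, with 11 of 12 higher. Of all tested genes, 11.3% were called higher in mTEChi and 6.06% in cTECs. Pecam1, which encodes the CD31 excluded by the gate, averaged 83.8 CPM in HOIL-deficient mTEChi and 11.9 CPM in control mTEChi, and no endothelial marker was at 0 in any group. The part of this in the junction results was not tested. Cldn15, a pore-forming claudin of the gut, rose in cTECs (3.04, adjusted p = 0.031) and Cldn12 rose in mTEChi (1.07, adjusted p = 0.043).

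Marker lists of medullary cells that imitate other epithelia were lower in HOIL-deficient mTEChi. There Cldn3 was lower and the other claudins among the members gave no call. Of all tested genes in mTEChi, 11.3% were called higher and 8.59% lower. The list of 8 microfold and secretory cell genes summed to 437 to 595 CPM in HOIL-deficient mTEChi and 1200.4 to 1253 CPM in control mTEChi, with 3 of 8 lower and none at 0. The 7 keratinized cell genes summed to 76.3 to 102 CPM in HOIL-deficient mTEChi and 209.7 to 449 CPM in control mTEChi, with 4 of 7 lower. The 6 tuft cell genes summed to 147 to 169 CPM in HOIL-deficient mTEChi and 247 to 448 CPM in control mTEChi, with 5 of 6 lower. For each of these lists the groups did not overlap (exact permutation p = 0.1, 2-sided, the smallest that 3 against 3 allows), and the part of these cells in the lower Cldn3 level was not tested. Of the 8 markers of mTECs at large, 2 were higher and none lower, summing to 11602 to 15041 CPM in HOIL-deficient mTEChi and 9125 to 10086 CPM in control mTEChi. Erythroid genes, listed because Cldn13 is known from that lineage, summed to 424 to 1501 CPM in HOIL-deficient mTEChi and 377 to 1498 CPM in control mTEChi, with none called. In HOIL-deficient cTECs, where Cldn13 had no count, they summed to 33.9 to 597 CPM with Klf1 and Slc4a1 among the genes at 0, against 155 to 441 CPM in control cTECs.

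**Figure D5:**
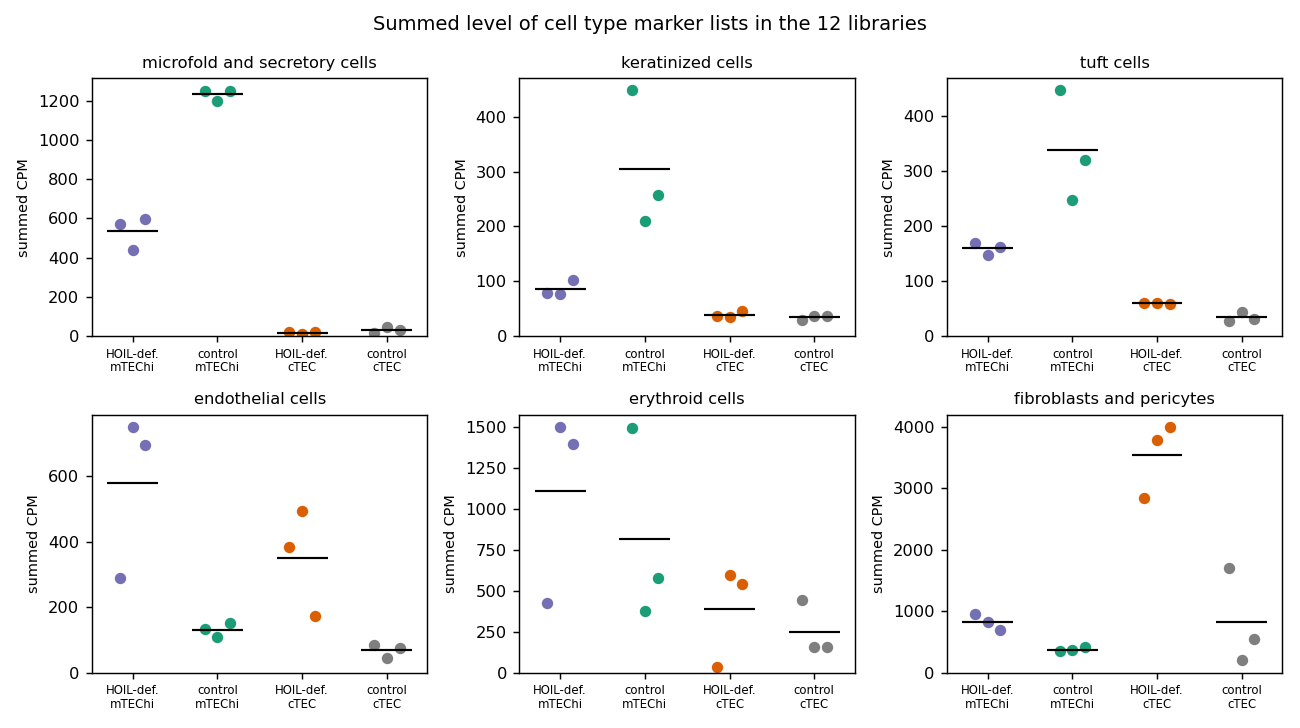
Summed CPM of 6 marker lists in every library (linear axis from 0), with the line at the group mean. The microfold, keratinized and tuft lists are lower in HOIL-deficient than in control mTEChi, endothelial genes are higher in HOIL-deficient cells of both types, and erythroid genes overlap.

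In cTECs, where Cldn1 rose, other marker lists also differed between the genotypes. Of all tested genes in cTECs, 6.06% were called higher and 6.02% lower. Genes of fibroblasts and pericytes summed to 2837 to 3998 CPM in HOIL-deficient cTECs and 200.1 to 1699 CPM in control cTECs, with 7 of 12 higher, and 7 of 7 adipocyte genes were higher, at 307 to 587 CPM in HOIL-deficient cTECs and 22.9 to 45.9 CPM in control cTECs. Thymocyte genes were lower, with 11 of 14 called, at 376 to 713 CPM in HOIL-deficient cTECs and 928 to 3413 CPM in control cTECs. The 9 cTEC markers summed to 16151 to 17352 CPM in HOIL-deficient cTECs and 34029 to 45587 CPM in control cTECs, with 8 of 9 lower. The part of these shifts in the Cldn1, Cldn8, Jam3 and Zeb2 values was not tested.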

How the data were processed

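RNA-seq libraries of sorted cTECs and mTEChi (3 per group, 12 in all) were made with an ultra-low-input SMART-Seq v4 kit and Nextera XT and sequenced as pairs on a NextSeq, per the labels. Deposited values are raw read counts per gene, made by the authors with featureCounts on mm10, per the submitters' processing notes; for the aligner, annotation and strandedness, the sources used here state nothing. No column of another series was present (0). Genes were kept by filterByExpr of edgeR (19398 of 27179), scaled by TMM and tested in 1 quasi-likelihood fit of all 12 libraries (edgeR 4.0.16, limma 3.58.1, R 4.3.3), with Benjamini-Hochberg adjustment and a threshold of 0.05. CPM and RPKM were computed here from the deposited counts and counted gene lengths. The 5 comparisons were HOIL-deficient against control in each cell type, their difference, and mTEChi against cTECs in each genotype. SE is the log2 fold change over the square root of F. Genes at 0 in a group were set at a floor of 3 counts over the group. Coordinates and promoters are RefSeq GRCm38.p6, the build named mm10; promoters were found for 7 of 10 members. The nearest genes were sought among those with a mean log2 CPM of at least 1. The fits were tested on simulated data. Alternatives were RLE and upper-quartile factors, DESeq2 1.42.0, limma-voom, no filter on low counts, only the groups compared, replicate blocks, male libraries only and each library left out. Genes named are the 10 members, up to 3 genes per list (ranked by p) and up to 8 further called genes per comparison, Rbck1, sort markers, chromosomal neighbours and the 3 nearest genes per member; marker genes beside these, and Cldn15, Cldn12 and Dsg1b where outside that rule, were chosen after their values were seen. The members and lists were chosen with earlier results of these data known. Shared replicate numbers were not treated as pairs. Some genes that these rules name are not reported here.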

Additional observations from a re-analysis of the deposited data

Results flagged for a closer look

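These 11 genes had a HOIL effect that differed between the cell types by the test of the difference itself, given as the mTEChi effect minus the cTEC effect on the log2 scale with edgeR's adjusted p. Among the members, the difference was -2.17 for Cldn1 (adjusted p = 0.0069), which rose in HOIL-deficient cTECs only. For Cldn13 the fitted value was 6.34 (adjusted p = 0.022), which rests on HOIL-deficient cTECs having no count and is not a measured size. Other genes with a lower effect in mTEChi than in cTECs were Cxadr at -2.46 (adjusted p = 0.0061), Nectin3 at -1.07 (adjusted p = 0.044), Dsp at -0.99 (adjusted p = 0.033) and Perp, a desmosome protein of the p53 response, at -1.01 (adjusted p = 0.023). Cldn9 stood at -4.84 (adjusted p = 0.03), a fitted value that rests on 1 count in control cTECs and 13 counts in HOIL-deficient cTECs. A higher effect in mTEChi was found for Dsg2 at 1.29 (adjusted p = 0.025), Ocln at 1.92 (adjusted p = 0.041), Crb3 at 2.80 (adjusted p = 0.049) and Dsg1a at 5.44 (adjusted p = 0.0026). The Dsg1a value rests on 2 counts in HOIL-deficient cTECs, and its reads may be shared with its paralogs. Cldn9 and Dsg1a entered the test through their mTEChi level, as Cldn6 and Cldn13 did.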

How the results depend on the processing

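Of the members' values under the alternatives, 667 kept their direction and side of the threshold, 22 crossed to pass it, 11 were lost and 45 changed sign. The cause of these changes was not tested. In the main fit, every value that changed sign in an alternative was smaller in size than its SE. For HOIL-deficient against control cTECs, Cdh1 was 0.05 under RLE factors, DESeq2 and only the groups compared, 0.07 under upper-quartile factors, 0.06 under limma-voom and 0.02 with no filter, and Cldn7 was 0.02 under DESeq2. Among male libraries only, Epcam was -0.02, Tjp1 -0.33 and Cldn7 0.54 in cTECs, and the difference of the effects was -0.78 for Cldn4 and 0.45 for Tjp1. For mTEChi, Tjp1 was -0.04 under RLE factors, upper-quartile factors and DESeq2, and Cldn13 was 0 under limma-voom. Under limma-voom the difference was 0.95 for Cldn3 and 1.34 for Cldn7. Cdh1 in control mTEChi against control cTECs was 0.01 under RLE factors and DESeq2.

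Counts of called genes moved with the method and with the samples. DESeq2 called 3332 genes in cTECs, 4763 in mTEChi and 2763 for the difference, against 2342, 3858 and 1908 with edgeR. In mTEChi, 3 members were called under RLE factors, upper-quartile factors and DESeq2, 5 under limma-voom and 4 with only the groups compared, where the TMM fit called 1. In cTECs, 1 member was called with only the groups compared and 1 among males only. Genes called in cTECs were 1395 with only the groups compared and 1540 among males only, and junction genes called were 10 and 13 there and 12 under limma-voom. For the difference, males only gave 1030 genes, 1 member and 2 junction genes. Upper-quartile factors changed the split of calls in mTEChi to 1708 higher of 3687, against 2191 of 3858 with TMM. For the difference the higher calls were 714 of 1587 with RLE and 651 of 1550 with upper-quartile factors, against 1159 of 1908 with TMM. Under RLE factors the median of all genes in control mTEChi against control cTECs was 0.43, against 0.24 with TMM.

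Leaving out each library in turn gave 2 to 5 members, 1340 to 2306 genes and 10 to 23 junction genes called in cTECs, 1 to 2 members, 1944 to 3116 genes and 17 to 21 junction genes in mTEChi, and 1 to 3 members, 949 to 2088 genes and 3 to 8 junction genes for the difference. Values with a change of sign ranged, in cTECs, from -0.02 to 0.08 for Epcam, -0.26 to 0.29 for Cdh1, -2.94 to 0.54 for Cldn7 and -0.32 to 0.70 for Tjp1. In mTEChi they ranged from -0.23 to 0.08 for Cldn13 and -0.17 to 0.45 for Tjp1. For the difference they ranged from -0.90 to 0.70 for Cldn3, -0.37 to 6.54 for Cldn4 (6.54 with a group at 0), -1.37 to 2.10 for Cldn7 and -0.64 to 0.39 for Tjp1. Cdh1 in control mTEChi against control cTECs ranged from -0.45 to 0.11.

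Deviations from the group mean were correlated between cTEC and mTEChi libraries. In HOIL-deficient cells same-numbered libraries gave r of 0.035 to 0.078, and unlike numbers gave -0.060 to 0.019. In control cells same-numbered libraries gave -0.037 to 0.098, and unlike numbers gave -0.055 to 0.063. Whether a shared number marks 1 animal is not labelled and was not tested. With the replicate block, 1799 genes were called in cTECs, 3288 in mTEChi and 1484 for the difference, and Cldn13 in mTEChi was 0.03. With the replicate block within genotype, 5 junction genes were called for the difference. The difference could not be had from only the groups compared. Cldn6 and Cldn13 failed the count filter in a fit of cTEC libraries alone.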
